A study of Capra hircus with 9 samples.

Results

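The transcripts described here encode receptors by which macrophages take up growth signals and recognise microbial products. They are all rows of the authors' table of differentially expressed transcripts whose protein description names the macrophage colony-stimulating factor 1 receptor (CSF1R), CD14 antigen or a toll-like receptor. The choice used the wording of the description and no expression value of its own, but it was made with earlier results of these data known and from a table that the authors name as one of differential expression. It gave 18 of 9131 transcripts: 2 of CSF1R, 1 of CD14, 13 of toll-like receptors 2, 4, 6, 7, 8 and 9 (TLR2 to TLR9), and 2 of TICAM1. TICAM1 is described as a toll-like receptor adapter molecule. It is a cytoplasmic adaptor, not a receptor, and was met by the wording alone. A further 5 of the 23 transcripts with such a description in the authors' full list were not rows of that table and have no values here.

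Messenger RNA was sequenced from the mammary gland of Xinong Saanen dairy goats at 3 stages, with 3 samples each. Lactation samples were taken on day 100 after kidding, dry-off samples on day 310, and non-lactation samples from goats that were neither in milk nor pregnant. The labels give neither the ages of the goats nor whether the samples of a stage came from separate goats; p-values then measure only the spread between samples, which may be technical. The values are the authors' means of each stage in RPKM, which scales reads by transcript length and library size and so allows levels of different transcripts to be set side by side. With means alone there is no value per sample, no SD, no depth and no test of overlap between the groups. A transcript is said to rise or fall where the false discovery rate (FDR) that the authors deposited for a pair of stages was below 0.05.

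CSF1R is the tyrosine kinase receptor for the cytokines CSF1 and IL34, and monocytes and macrophages need its signal to survive, proliferate and mature. CD14 is a membrane and serum protein that passes bacterial lipopolysaccharide to the complex of TLR4 and LY96. Toll-like receptors are membrane proteins that bind conserved microbial molecules, at the cell surface for lipoproteins, lipopolysaccharide and flagellin, and inside endosomes for nucleic acids. Their adaptors MYD88 and TICAM1 lead to NF-kappaB and interferon regulatory factors. In the mammary gland, macrophages lie around ducts and alveoli, take part in clearing debris when milk removal stops, and are among the first cells to meet bacteria that enter through the teat. Epithelial cells and other leukocytes also make several toll-like receptors.

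The gland as a whole differed between stages in ways that touch every value below. LALBA, which defines milk-secreting cells, was above 0 in every stage. LALBA and the milk gene GLYCAM1 made up 49.9% of the table's summed mean RPKM during lactation, 0.523% at dry-off and 21.5% in non-lactation. The median log2 ratio of dry-off over lactation was 2.09 over the whole table and 1.00 over 44 transcripts of ribosomal proteins. These 44 are rows of the same table of differential expression. By the authors' deposited table, 35 of them had an unadjusted p below 0.05 with a higher mean in dry-off. Their median is a second scale for the ratios, not an unchanged baseline. Of the table's transcripts, 93.8% had a p-value below 0.05 in at least 1 of the authors' comparisons. The part of these shifts in the changes of the receptors was not tested. In bulk tissue, a change in the number of cells that make a receptor and a change in its RNA per cell cannot be told apart.

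All 18 transcripts had their highest mean in dry-off and their lowest in lactation. From lactation to dry-off 13 of 18 rose by the authors' deposited table, against 65.9% of the whole table, and none fell, against 0.69%. The share that rose was thus close to that of the table. At an unadjusted p below 0.05 the count was 17 of 18 by the authors' deposited table, against 86.9%. The sizes of the differences lay further from the table than the counts did. The median log2 ratio of dry-off over lactation was 3.57 over the 16 transcripts with a lactation mean above 0, against the table's 2.09. Of the 16, 12 lay above the table's median. Of these 12, 7 were TLR7, TLR8 and TLR9 transcripts below 1 RPKM in lactation, and 4 of the 7 were of TLR7. The median thus rests in part on low transcripts of few genes, and it was not computed with 1 transcript per description. With 1 RPKM added to every mean, so that all 18 enter, the medians were 2.03 and 1.47. CD14, TLR2, TLR4 and 1 TICAM1 transcript lay below the table's median. No test of the difference between these medians was made, since the transcripts are not replicates.

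**Figure D1:**
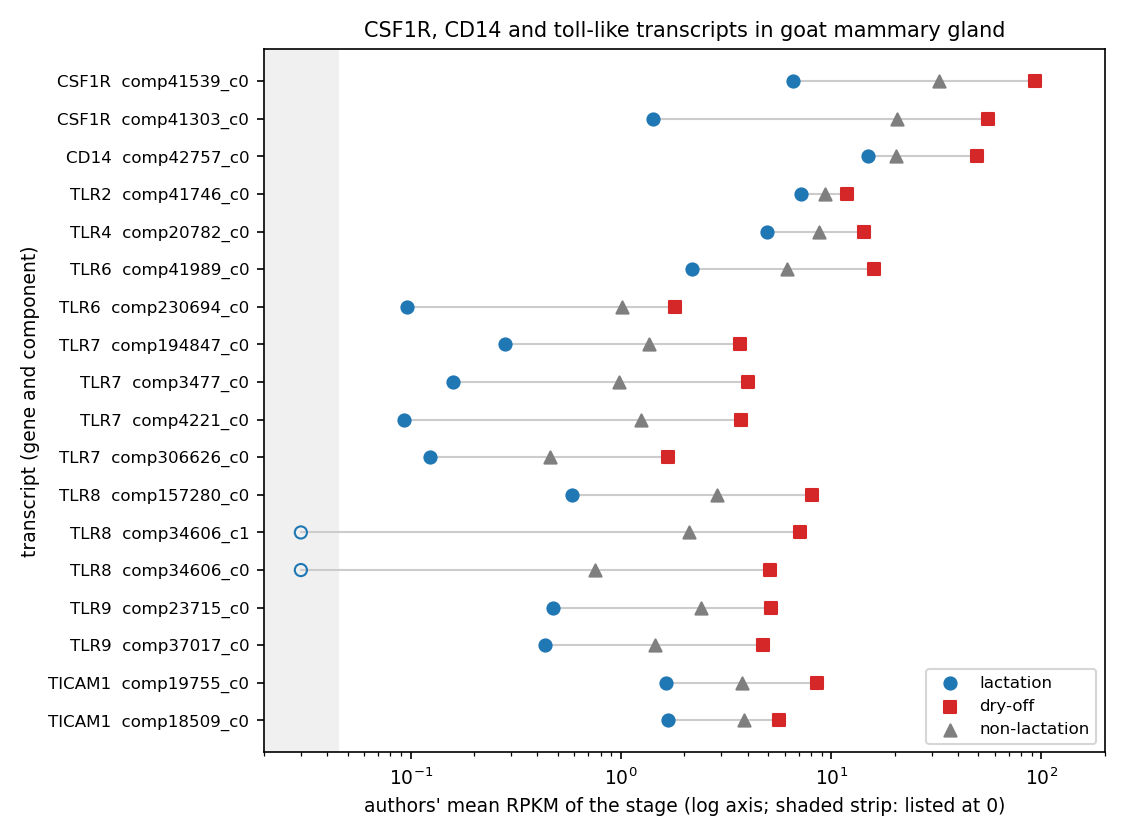
Authors' mean RPKM of each of the 18 transcripts in lactation (circles), dry-off (squares) and non-lactation (triangles), on a log axis, with means listed at 0 drawn as open symbols in the shaded strip. In every line dry-off is to the right, lactation to the left and non-lactation between them; the CSF1R transcripts at 92.8 and 55.6 RPKM and CD14 at 49.2 RPKM are the 3 highest in dry-off.

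Both CSF1R transcripts rose at dry-off and reached the highest levels of the group. The first, from component comp41539_c0, had mean levels of 6.54 RPKM during lactation, 92.8 RPKM at dry-off and 32.6 RPKM in non-lactation, and its 14.2-fold dry-off difference had an FDR of 0.00314 by the authors' deposited table. The second, from comp41303_c0, had 1.43, 55.6 and 20.5 RPKM at the same stages, a 39.0-fold difference with an FDR of 0.0230 by the authors' deposited table. In lactation both were low, in dry-off both were high, and the non-lactation means were between these. The log2 ratios of dry-off over lactation, 3.83 and 5.28, were larger than those of 91.4% and 98.8% of the table's transcripts. The level of the second transcript was 0.218 times that of the first in lactation, 0.599 times at dry-off and 0.628 times in non-lactation. The 2 components carry the same description; whether they are pieces of 1 messenger RNA, and how the authors divided reads between them, the sources used here do not say.

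The matched genes of the CSF1R axis rose at dry-off about as often as the table as a whole. On a list of its ligands, receptor relatives and signalling partners, 11 of 22 genes had a transcript that could be matched to a single symbol. Of these, 7 rose by the authors' deposited table and none fell, with a median log2 ratio of 3.63 that includes CSF1R itself. The table, counted once per description as the lists are, had 2512 of 3630 that rose, 28 that fell and a median of 2.05. CSF1, the macrophage growth factor that binds CSF1R, had mean levels of 1.77 RPKM during lactation, 15.4 RPKM at dry-off and 6.26 RPKM in non-lactation (dry-off FDR 0.0180 by the authors' deposited table). Ligand and receptor were therefore both lowest in lactation and highest in dry-off, an order common in the table. Of its 9131 transcripts 8889 were higher in dry-off than in lactation, and 92.5% had the non-lactation mean between the other stages. A pair of receptor relatives rose as well: PDGFRA, the platelet-derived growth factor receptor of mesenchymal cells, from 0.892 to 35.7 RPKM (FDR 0.00498), and KIT, the stem cell factor receptor, from 0.333 to 5.93 RPKM (FDR 0.0108), both by the authors' deposited table. PDGFRB, whose gene neighbours CSF1R in the goat RefSeq annotation, had 3.65, 40.4 and 20.9 RPKM at the 3 stages, with a dry-off FDR of 0.109 by the authors' deposited table.

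The receptors for the other colony-stimulating factors did not share 1 pattern. CSF2RA, the ligand-binding chain for granulocyte-macrophage colony-stimulating factor, rose from 0.475 to 13.8 RPKM (FDR 0.0233 by the authors' deposited table) and had 4.56 RPKM in non-lactation. CSF2RB, the signalling chain that this receptor shares with others, had its lowest mean in dry-off, with 57.5 RPKM during lactation, 36.8 RPKM at dry-off and 121 RPKM in non-lactation (dry-off FDR 0.293 by the authors' deposited table). CSF3R, the granulocyte colony-stimulating factor receptor of neutrophils, had 0.381, 2.22 and 4.68 RPKM (dry-off FDR 0.211 by the authors' deposited table). Both CSF2RB and CSF3R thus had their highest mean in non-lactation, unlike the 18 receptor and adaptor transcripts.

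CD14 rose at dry-off with a smaller ratio than CSF1R, and its log2 ratio turned to −0.37 when centred on the table's median. Its mean levels were 15.0 RPKM during lactation, 49.2 RPKM at dry-off and 20.4 RPKM in non-lactation, a 3.29-fold dry-off difference with an FDR of 0.0163 by the authors' deposited table. It was the highest of the 18 transcripts in lactation and the third highest in dry-off. Its log2 ratio of 1.72 was above the ribosomal protein median but below the table's median, and larger than that of only 34.2% of transcripts.

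Of 9 genes listed for lipopolysaccharide recognition, 4 were matched: CD14, TLR4, CD180 and CD36. The first pair rose by the authors' deposited table, though by less than the table's median, and the other pair did not pass. The median log2 ratio of the 4 was 1.63. The table counted once per description had 2512 of 3630 that rose and a median of 2.05. CD180, a toll-like relative on B cells and myeloid cells that modulates the response to lipopolysaccharide, had 0.392 RPKM during lactation, 21.0 RPKM at dry-off and 6.61 RPKM in non-lactation (dry-off FDR 0.0914 by the authors' deposited table). CD36, a scavenger receptor that also transports fatty acids, had 82.3, 15.9 and 68.4 RPKM (dry-off FDR 0.0757 by the authors' deposited table). Its means ran opposite to those of CD14, with the lowest in dry-off. LY96 and LBP, which act beside CD14 in handing over lipopolysaccharide, had no matched transcript and were not analysed here.

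The toll-like receptors of the cell surface differed widely in their ratios of dry-off over lactation, and for TLR2 and TLR4 the direction depended on the scaling. TLR2, which recognises bacterial lipoproteins, had 7.15 RPKM during lactation, 11.8 RPKM at dry-off and 9.32 RPKM in non-lactation. Its 1.66-fold dry-off difference had an FDR of 0.0286 by the authors' deposited table, yet its log2 ratio of 0.73 was larger than that of only 5.09% of transcripts and smaller than the ribosomal protein median of 1.00. TLR4, the lipopolysaccharide receptor, had 4.95, 14.4 and 8.76 RPKM, a 2.90-fold dry-off difference with an FDR of 0.0188 by the authors' deposited table. Both were among the 4 highest transcripts of the group in lactation. Centred on the table's median, the log2 ratio was −1.36 for TLR2 and −0.55 for TLR4. Centred on the ribosomal protein median, that of TLR2 was −0.28. Neither median is an unchanged baseline, so a fall of TLR2 or TLR4 RNA in dry-off cannot be read from these values.

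TLR6, the partner with which TLR2 recognises diacylated lipoproteins, had larger ratios than TLR2; the difference was not tested. Its main transcript (comp41989_c0) had 2.18 RPKM during lactation, 16.0 RPKM at dry-off and 6.18 RPKM in non-lactation, a 7.35-fold dry-off difference with an FDR of 0.0465 by the authors' deposited table. TLR6 was therefore below TLR2 in lactation and above it in dry-off on the RPKM scale. The spread of neither mean is known, so this order was not tested. The second TLR6 transcript (comp230694_c0) was much lower, with 0.0954, 1.82 and 1.01 RPKM and a dry-off FDR of 0.0869 by the authors' deposited table. Over the 4 cell surface transcripts, 3 rose by the authors' deposited table, against 65.9% of the whole table. Their median log2 ratio was 2.21, from 0.73 to 4.25, close to the table's median of 2.09.

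Most transcripts of the endosomal receptors had low levels, and their ratios lay above the table's median. TLR7 and TLR8, which sense single-stranded RNA, and TLR9, which senses unmethylated DNA, together had 9 transcripts, and 6 of them rose by the authors' deposited table, a share like the table's 65.9%. The 7 with a lactation mean above 0 had log2 ratios of dry-off over lactation from 3.44 to 5.32, with a median of 3.75, and all 7 lay above the table's median. All 9 were below 1 RPKM during lactation, so these ratios rest on small denominators. With 1 RPKM added to every mean the median of the 9 was 2.11, below the 2.42 of the main TLR6 transcript, and no difference between endosomal and cell surface receptors was tested.

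All 4 TLR7 transcripts rose by the authors' deposited table, against 65.9% of the whole table. Component comp194847_c0 had 0.282 RPKM during lactation, 3.66 RPKM at dry-off and 1.36 RPKM in non-lactation (13.0-fold at dry-off, FDR 0.0364 by the authors' deposited table). Component comp3477_c0 had 0.159, 4.0 and 0.975 RPKM (25.2-fold, FDR 0.0330 by the authors' deposited table). These 2 TLR7 transcripts were thus at nearly the same level in dry-off but not in lactation. Component comp4221_c0 had 0.0927, 3.70 and 1.24 RPKM (40.0-fold, FDR 0.0339 by the authors' deposited table). The lowest, comp306626_c0, had 0.124, 1.67 and 0.461 RPKM (13.4-fold, FDR 0.0105 by the authors' deposited table). The fold differences of transcripts with this 1 description thus ranged from 13.0 to 40.0. Among the first 3 the dry-off means were close to each other, and the lactation means ranged from 0.0927 to 0.282 RPKM.

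TLR8 had 3 transcripts, and 2 of them rose by the authors' deposited table, against 65.9% of the whole table. Component comp157280_c0 had 0.588 RPKM during lactation, 8.06 RPKM at dry-off and 2.85 RPKM in non-lactation, a 13.7-fold dry-off difference with an FDR of 0.0219 by the authors' deposited table. Components comp34606_c0 and comp34606_c1, which share an assembly number, were listed at 0 in lactation. The first had 5.14 RPKM at dry-off and 0.753 RPKM in non-lactation, and rose with an FDR of 0.0207 by the authors' deposited table. The second had 7.12 and 2.10 RPKM, with a dry-off FDR of 0.0719 by the authors' deposited table. No fold can be given for either. Of these 18 transcripts 2 were listed at 0 in lactation, against 2.11% of all transcripts in the table. TLR8 lies next to TLR7 in the goat RefSeq annotation.

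Neither TLR9 transcript passed. Component comp23715_c0 had 0.477 RPKM during lactation, 5.15 RPKM at dry-off and 2.39 RPKM in non-lactation, a 10.8-fold dry-off difference with an FDR of 0.117 by the authors' deposited table. Component comp37017_c0 had 0.434, 4.73 and 1.45 RPKM, a 10.9-fold difference with an FDR of 0.0786 by the authors' deposited table. TLR9 was the only receptor of the group with no transcript that rose by the authors' deposited table, although its fold differences exceeded those of TLR2, TLR4 and CD14.

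**Figure D2:**
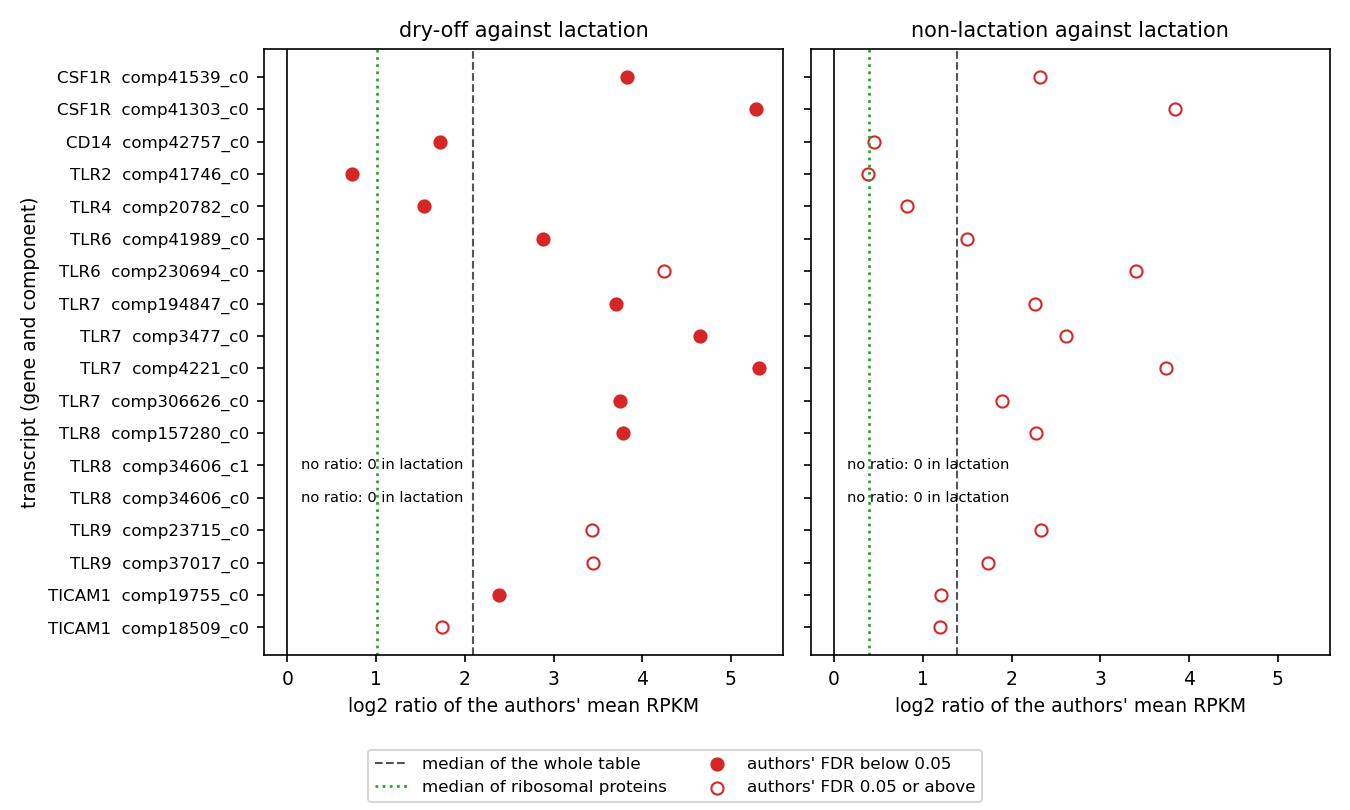
Log2 ratio of the authors' mean RPKM for each transcript, dry-off over lactation (left) and non-lactation over lactation (right), filled where the authors' FDR was below 0.05, with the medians of the whole table and of ribosomal protein transcripts as vertical lines. At dry-off TLR2 (0.73), TLR4 (1.54), CD14 (1.72) and 1 TICAM1 transcript (1.75) lie left of the table's median of 2.09; no transcript is filled on the right.

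TLR3 and TLR5 fell outside the choice because the table spells them "toll-like recepto". TLR3, the endosomal sensor of double-stranded RNA, had 3 transcripts. The highest had 1.12 RPKM during lactation, 10.4 RPKM at dry-off and 4.09 RPKM in non-lactation, a 9.29-fold dry-off difference with an FDR of 0.00463 by the authors' deposited table. The other TLR3 transcripts had dry-off FDRs of 0.101 and 0.128 by the authors' deposited table. TLR5, the flagellin receptor, had 0.466 RPKM during lactation, 1.73 RPKM at dry-off and 2.62 RPKM in non-lactation, with a dry-off FDR of 0.0501 by the authors' deposited table. TLR5 was the only toll-like receptor described here with its highest mean in non-lactation rather than dry-off. Of the 10 toll-like receptor genes listed, 8 were matched with TLR3 and TLR5 counted. Of these, 6 rose by the authors' deposited table, with a median log2 ratio of 3.05. The table counted once per description had 2512 of 3630 that rose and a median of 2.05. TLR1 and TLR10 were not analysed here. With the 4 TLR3 and TLR5 transcripts added to the 18, 14 of 22 rose at dry-off by the authors' deposited table, against 65.9% of the table. This addition was chosen after the values were seen.

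TICAM1, the adaptor that TLR3 and TLR4 use to reach interferon regulatory factors, had 2 transcripts. Component comp19755_c0 had 1.64 RPKM during lactation, 8.55 RPKM at dry-off and 3.77 RPKM in non-lactation, a 5.22-fold dry-off difference with an FDR of 0.0356 by the authors' deposited table. Component comp18509_c0 had 1.68, 5.62 and 3.84 RPKM, with a dry-off FDR of 0.0526 by the authors' deposited table. The mean of the second was 1.02 times that of the first in lactation and in non-lactation, and 0.658 times at dry-off; these ratios were not tested.

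Downstream of the receptors most adaptors and kinases rose, with ratios centred near that of the table. Of 28 listed adaptors and kinases, 24 were matched to a single symbol, and 20 rose by the authors' deposited table with none falling. In the table counted once per description, 2512 of 3630 rose and 28 fell. The list's median log2 ratio of 1.94 was below the table's 2.09. The 4 with the smallest FDR by the authors' deposited table were MAP2K7, a kinase upstream of JNK (1.31 to 5.89 RPKM, FDR 0.00390), TAB1, a partner of the kinase TAK1 (2.98 to 11.4 RPKM, FDR 0.00527), TRAF6, a ubiquitin ligase (3.83 to 10.6 RPKM, FDR 0.00636), and IKBKG, the regulatory subunit of the IkappaB kinase (3.68 to 9.59 RPKM, FDR 0.00760). MYD88, the adaptor shared by most toll-like receptors, had 20.7 RPKM during lactation, 35.6 RPKM at dry-off and 26.5 RPKM in non-lactation, with a dry-off FDR of 0.0580 by the authors' deposited table. MYD88 thus had a higher mean in lactation than any toll-like receptor described here and a log2 ratio of only 0.78. IRAK3, an inhibitory member of the IRAK kinases, was listed at 0 in lactation and had 1.16 RPKM at dry-off and 2.14 RPKM in non-lactation (dry-off FDR 0.0220 by the authors' deposited table).

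At the end of the pathway the matched transcription factors rose, apart from FOS, while the cytokines IL1B, TNF and CCL3 did not pass. Of 26 listed transcription factors and outputs, 15 were matched, and 11 rose by the authors' deposited table, with a median log2 ratio of 3.19. The table counted once per description had 2512 of 3630 that rose and a median of 2.05. IRF7, a master factor of type I interferon genes, rose from 3.36 to 25.1 RPKM (FDR 0.00358), and NFKB2, an NF-kappaB subunit, from 2.73 to 17.2 RPKM (FDR 0.00395), both by the authors' deposited table. IRF5, which acts below MYD88, rose from 1.55 to 10.3 RPKM (FDR 0.00563), and IRF3, which acts below TICAM1, from 0.861 to 4.69 RPKM (FDR 0.0102), both by the authors' deposited table. The IRF3 values are those of 1 of 37 transcripts with that description, the one with the highest mean. The inflammatory cytokine IL1B had 1.23 RPKM during lactation and 11.2 RPKM at dry-off (FDR 0.130), TNF had 0.122 and 2.76 RPKM (FDR 0.0973), and the chemokine CCL3 had 1.49 and 33.9 RPKM (FDR 0.0581), by the authors' deposited table. A transcript described as interferon beta, a family description that was not counted with these, rose from 0.463 to 4.87 RPKM (FDR 0.0117 by the authors' deposited table). The immediate early factor FOS had 1.55, 16.0 and 21.9 RPKM (dry-off FDR 0.0540 by the authors' deposited table), with its highest mean in non-lactation. IL1B, TNF, CCL3 and FOS, which did not pass, had 9.10-fold to 22.7-fold higher means in dry-off than in lactation.

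Of 11 listed genes that restrain toll-like receptors or serve their traffic, 8 were matched and 4 rose by the authors' deposited table, with a median log2 ratio of 2.21. The table counted once per description had a larger share, 2512 of 3630, and a median of 2.05. PELI1, a ubiquitin ligase of this pathway, rose from 1.74 to 7.74 RPKM (FDR 0.00518), and CYLD, a deubiquitinase that limits NF-kappaB, from 2.53 to 13.0 RPKM (FDR 0.00752), both by the authors' deposited table. CTSL, an endosomal protease that cleaves nucleic acid receptors, rose from 6.80 to 26.2 RPKM (FDR 0.00935), and TNFAIP3, the ubiquitin-editing enzyme A20, from 1.20 to 26.0 RPKM (FDR 0.0120), both by the authors' deposited table. TOLLIP and SIGIRR, which dampen signalling at the receptor, had 14.4 and 2.61 RPKM during lactation, 30.1 and 4.04 RPKM at dry-off, and FDRs of 0.101 and 0.142 by the authors' deposited table. The endoplasmic reticulum chaperone HSP90B1, which toll-like receptors need for folding, had 45.4, 217 and 89.6 RPKM (dry-off FDR 0.107 by the authors' deposited table).

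By the authors' own assignment, the toll-like receptor signalling pathway held 157 transcripts, of which 16 were among the 18 described here; the CSF1R transcripts were the other 2. Of the other 141, 103 rose at dry-off by the authors' deposited table, against 65.9% of the whole table, and none fell, against 0.69%. Counted once per component, 62 of 90 rose by the authors' deposited table, with a median log2 ratio of 2.40; 4104 of all 6477 components rose, with a median of 2.25. The pathway is uneven in its make-up, since 37 transcripts described as IRF3 belonged to it. CSF1R was assigned to cytokine-cytokine receptor interaction, endocytosis, haematopoietic cell lineage and pathways in cancer, and CD14 also to phagosome and haematopoietic cell lineage.

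**Figure D3:**
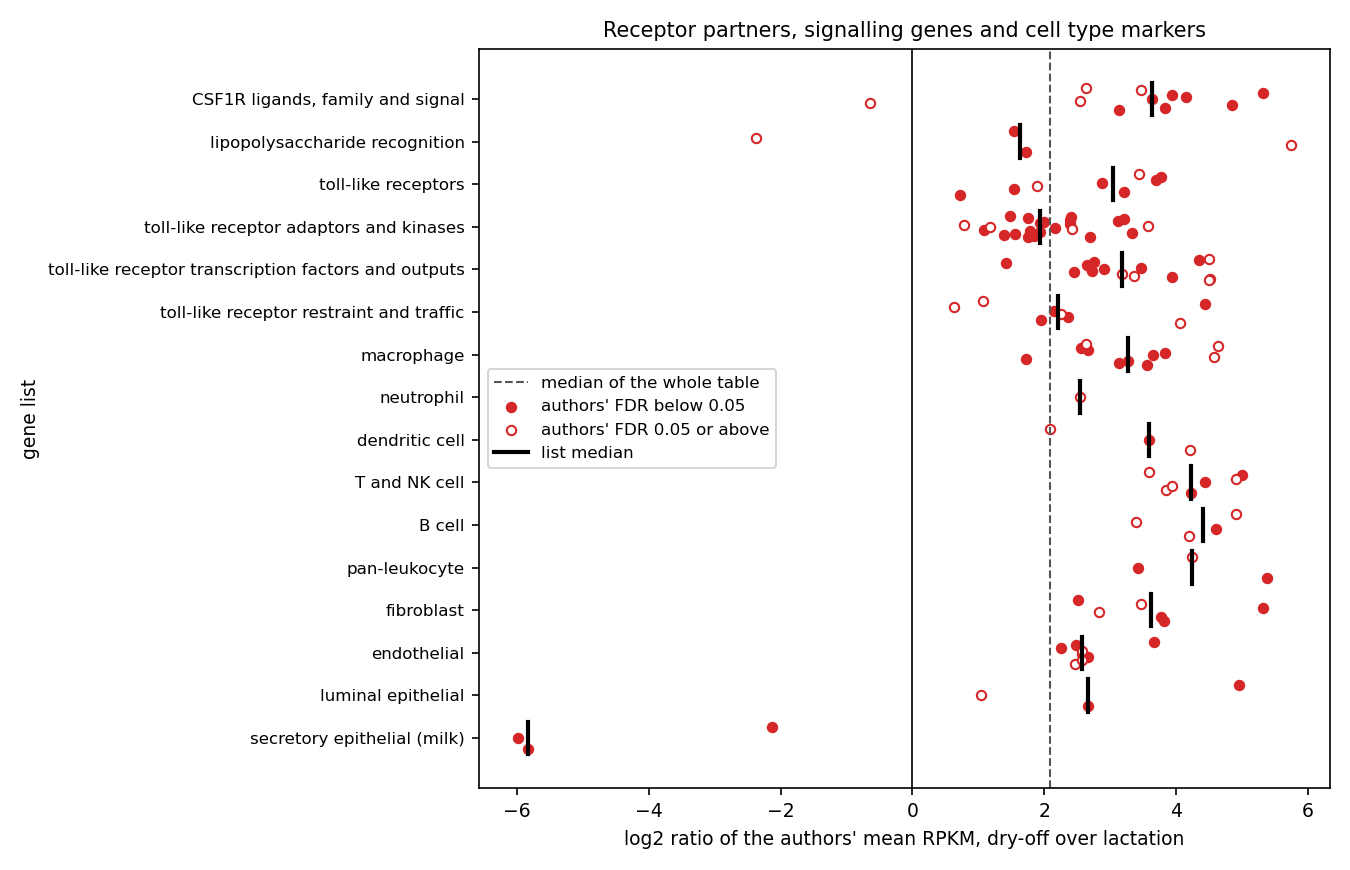
Log2 ratio of the authors' mean RPKM, dry-off over lactation, for each gene matched to a single symbol on 16 lists, filled where the authors' FDR was below 0.05; black bars are list medians and the dashed line is the table's median of 2.09. Genes listed at 0 in lactation (IRAK3, MMP9 and CCR7) have no ratio and are not drawn. Adaptors and kinases (median 1.94) lie lower than transcription factors and outputs (3.19), and the milk genes lie left of 0.

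In non-lactation the receptors stood between the other stages, and no difference passed. By the FDR of the authors' deposited table, 0 of 18 transcripts rose from lactation to non-lactation, against 0.011% of all rows, and 0 fell, against 0.0%. At an unadjusted p below 0.05, 2 of 18 had a higher mean in non-lactation than in lactation by the authors' deposited table, against 41.5% of the table. These were the low TLR6 transcript comp230694_c0 (p 0.00921, FDR 0.146) and the TICAM1 transcript comp19755_c0 (p 0.0463, FDR 0.195), as the authors' deposited table gives them. CSF1R, with a 4.98-fold higher mean in non-lactation than in lactation for its first transcript and 14.3-fold for its second, had FDRs of 0.315 and 0.319 by the authors' deposited table. The median log2 ratio of non-lactation over lactation was 2.08 for the 16 receptor and adaptor transcripts with a ratio, and 1.39 for the table. With 1 RPKM added to every mean the order turned, at 0.87 and 0.90.

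From dry-off to non-lactation the means were lower in all 18, and again none passed. By the FDR of the authors' deposited table, 0 of 18 fell and 0 rose, against 0.0% of all rows in each direction. At an unadjusted p below 0.05, 7 of 18 were lower in non-lactation by the authors' deposited table, against 38.5%. They included CD14 (p 0.0231) and the first CSF1R transcript (p 0.0445), 2 TLR7 transcripts, 1 TLR8 transcript, the main TLR6 transcript and 1 TICAM1 transcript, as the authors' deposited table gives them. The median log2 ratio of non-lactation over dry-off was −1.44 for the 18 receptor and adaptor transcripts and −0.70 for the table. Each pair of these 3 comparisons shares the samples of 1 stage, so they are not independent of each other.

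The non-lactation mean lay between the other stages in 18 of 18 transcripts, and in 92.5% of the table. How far it lay from lactation was measured as the non-lactation mean minus the lactation mean, as a percentage of the dry-off mean minus the lactation mean. Over the 18 transcripts the median was 30.6%, while over all transcripts higher in dry-off it was 47.7%, with quartiles of 36.2% and 62.3%. CD14 was at 15.9% and the TLR8 transcript comp34606_c0 at 14.7%, the lowest of the group. The CSF1R transcripts were at 30.2% and 35.1%. TLR4 was at 40.5%, TLR2 at 46.1%, the low TLR6 transcript at 53.1% and the TICAM1 transcript comp18509_c0 at 54.9%, the highest. No test of these shares was made, because they come from stage means.

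**Figure D4:**
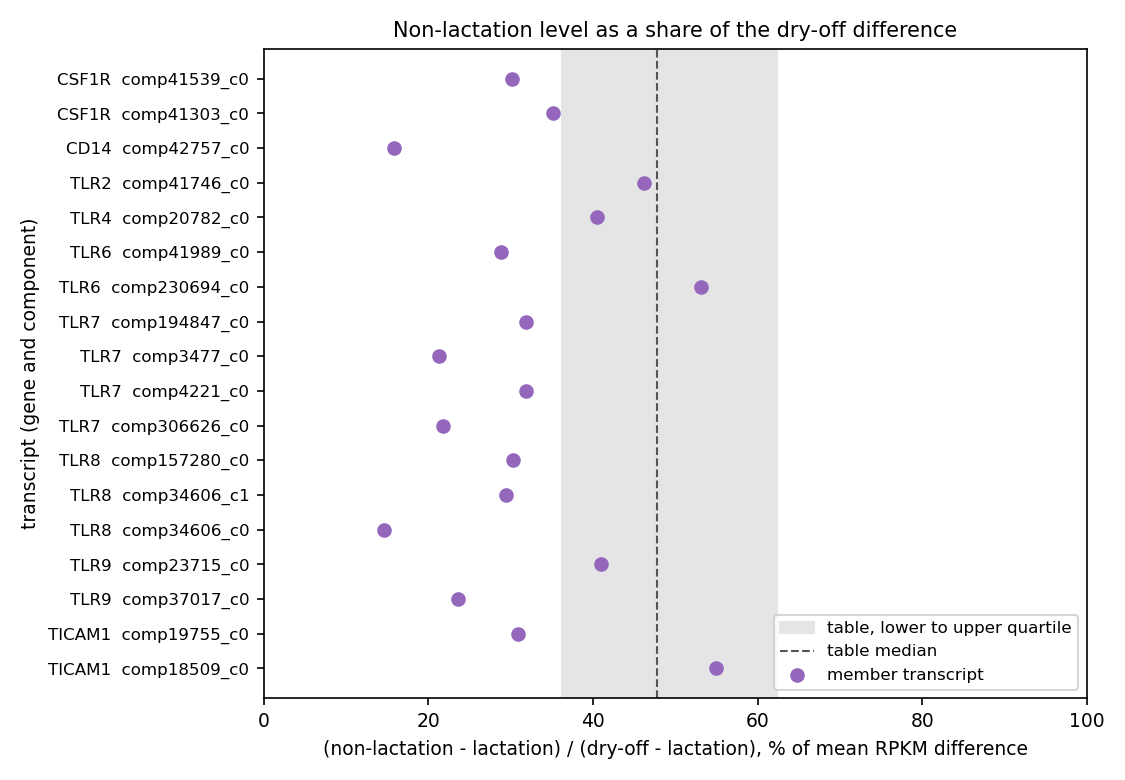
Difference of the non-lactation mean from the lactation mean as a percentage of the dry-off difference, for each of the 18 transcripts, with the median (47.7%) and the quartiles (36.2% and 62.3%) of all transcripts higher in dry-off. CD14 (15.9%) and 1 TLR8 transcript (14.7%) lie lowest, and the CSF1R transcripts lie left of the quartile band at 30.2% and 35.1%.

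The order of the receptors by level changed between lactation and the other stages. In lactation CD14 was highest at 15.0 RPKM, followed by TLR2 at 7.15 RPKM, CSF1R at 6.54 RPKM and TLR4 at 4.95 RPKM. In dry-off both CSF1R transcripts stood above CD14, and TLR6 at 16.0 RPKM stood above TLR4 at 14.4 RPKM and TLR2 at 11.8 RPKM. In non-lactation the first CSF1R transcript led at 32.6 RPKM, while the second, at 20.5 RPKM, and CD14, at 20.4 RPKM, were level. The order of TLR2, TLR4 and TLR6 there was again that of lactation. TLR7 and TLR9 were below 6 RPKM at all stages. Without values per sample, neighbours in these orders cannot be said to differ beyond their spread.

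Among other components with at least 10 RPKM in some stage, those whose profile over the 3 stage means was closest to CSF1R included immune genes. The distance was Euclidean on log2(mean RPKM + 1), with each profile centred on its own mean. The 5 closest of 2752 were described as homeobox protein MOX (distance 0.0451), lymphocyte antigen 75 (0.0541), the T cell receptor component CD3G (0.0590), a T cell receptor beta chain V region (0.0673) and TNFAIP3 (0.0782). For CD14 they were described as heat shock 70kDa protein 1/8 (0.0269), ribonuclease P subunit RPR2 (0.0685), prefoldin subunit 2 (0.0766), the spindle checkpoint protein MAD2 (0.0923) and arginyl-tRNA synthetase (0.0953). For TLR4 the closest was very long chain acyl-CoA dehydrogenase at 0.0031, and for TLR2 the translation initiation factor eIF-5 at 0.0208. A profile of 3 means is easily matched, so these distances are descriptions only.

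The authors' correlation and profile tables placed the receptors among the many transcripts that vary together. The authors counted 5214 to 8007 correlated transcripts for each of the 18, with a median of 7129, against a median of 7544 for the table. CD14 had 5403, more than only 16.9% of the table, and the TLR8 transcript comp34606_c0 had 5214, more than 15.9%. TLR5, outside the group, had 458. Of the 18, 13 were in profile 14 of the authors, which held 57.6% of the table's transcripts; CD14 was in profile 10, the low TLR6 transcript in profile 11, and TLR2 and 2 TLR8 transcripts in none.

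Markers of several cell types also had higher means in dry-off, as did 8889 of the table's 9131 transcripts. Of 22 macrophage markers 11 were matched, and 8 rose by the authors' deposited table with none falling. In the table counted once per description, 2512 of 3630 rose and 28 fell. The median log2 ratio of dry-off over lactation was 3.28 for the macrophage list, against the table's 2.05. The macrophage list holds CSF1R and CD14 themselves. Its summed mean was 85.5 RPKM during lactation, 773 RPKM at dry-off and 318 RPKM in non-lactation, and none of the 11 was at 0 in any stage. FCGR1A, the high-affinity IgG receptor, rose from 2.99 to 18.9 RPKM (FDR 0.00577), and CD68, a lysosomal protein of macrophages, from 1.78 to 22.4 RPKM (FDR 0.0364), both by the authors' deposited table. The scavenger receptors CD163 (0.780 to 18.5 RPKM, FDR 0.10) and MSR1 (0.480 to 11.9 RPKM, FDR 0.0686) did not pass by the authors' deposited table. Among the 11 macrophage markers the fold difference of dry-off over lactation ranged from 3.29 for CD14 to 24.8 for MSR1, with FCGR1A at 6.31, TYROBP at 6.21, MERTK at 5.89, C1QA at 11.8 and CD68 at 12.6.

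The other leukocyte lists likewise had their highest summed means in dry-off. Of 7 matched T and NK cell markers 3 rose by the authors' deposited table, with a summed mean of 16.97 RPKM during lactation, 279.7 RPKM at dry-off and 101 RPKM in non-lactation. Of 4 B cell markers 1 rose, of 4 dendritic cell markers 2 rose, and of 3 pan-leukocyte markers 2 rose, by the authors' deposited table. In the table counted once per description 2512 of 3630 rose, a larger share than on the T and NK cell, B cell and dendritic cell lists. The median log2 ratios of dry-off over lactation were nonetheless larger than the table's 2.05. They were 4.22 for T and NK cells, 4.41 for B cells, 3.58 for dendritic cells and 4.25 for the pan-leukocyte genes. The summed means of the last 3 lists were 3.04, 51.7 and 16.9 RPKM for B cells, 1.96, 27.3 and 10.5 RPKM for dendritic cells, and 6.12, 94.5 and 42.5 RPKM for the pan-leukocyte genes, in the order lactation, dry-off and non-lactation. ITGB2, an integrin chain of all leukocytes, rose from 3.31 to 35.5 RPKM (FDR 0.0361 by the authors' deposited table). PTPRC, the leukocyte phosphatase CD45, had 2.57 and 48.7 RPKM (FDR 0.0744 by the authors' deposited table). The dendritic cell marker CCR7 was listed at 0 in lactation. Only 2 of 12 neutrophil markers were matched, CSF3R and MMP9, and neither passed; MMP9 was listed at 0 in lactation and had 6.51 RPKM at dry-off and 3.37 RPKM in non-lactation.

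Markers of fibroblasts, endothelium and luminal epithelium that were matched to a single symbol had higher summed means in dry-off too. Of 6 matched fibroblast markers 4 rose, of 8 endothelial markers 5 rose and of 3 luminal epithelial markers 2 rose by the authors' deposited table. In the table counted once per description 2512 of 3630 rose, a like share. The median log2 ratios of the 3 lists were 3.62, 2.57 and 2.67, against 2.05. Their summed means were 229, 1740 and 1071 RPKM for fibroblasts, 70.2, 456 and 309.7 RPKM for endothelium and 48.3, 149.6 and 107.5 RPKM for luminal epithelium, in the same order of stages. The luminal list also held 3 family descriptions that were not counted. E74-like factor 3/5, matched to ELF5, fell from 81.9 to 24.8 RPKM at dry-off (FDR 0.0314 by the authors' deposited table). The keratin description matched to KRT8 rose from 74.7 to 546 RPKM (FDR 0.0134). That matched to KRT18 had 128 and 353 RPKM (FDR 0.0680), both by the authors' deposited table. The 3 matched milk genes LALBA, GLYCAM1 and XDH all fell at dry-off by the authors' deposited table. In the table counted once per description 28 of 3630 fell. In lactation, dry-off and non-lactation LALBA had 60951, 960 and 30948 RPKM, and GLYCAM1 had 11225, 197 and 5857 RPKM. XDH had 77.7, 17.8 and 110 RPKM, with its highest mean in non-lactation. The part of changes in cell types in the levels of the receptors was not tested.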

How the data were processed

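Mammary RNA of 9 goat samples (3 lactation, 3 dry-off, 3 non-lactation, grouped by title) was poly(A)-selected and sequenced as single reads of 36 bases, per the labels' protocols. FastQC is named in the submitters' processing notes; for the assembler, aligner, counting method, genome build and strand, nothing is given in the sources used here. Per the file headers, the authors deposited mean RPKM of each stage, and, between every pair of stages, an FDR and a p-value by a test that is not named. The authors also deposited pathway, profile and correlation tables. At the smallest p-value, FDR over p was 23127 for dry-off against lactation, 19979 and 25575 for the other comparisons, more than the 9131 rows, so the adjustment covered more transcripts than the table. The depth per sample is unknown.

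From these means log2 ratios were computed, because the deposited log2 columns hold spreadsheet errors; a mean of 0 gives no ratio. No test of expression was made here: a call is the authors' FDR below 0.05. The members and lists were chosen with earlier results of these data known. Symbols were matched to protein descriptions by hand after the tables were opened: of 202 symbols on 16 lists, 114 matched a description of 1 gene and 18 a family description, which is left out of the counts; 124 of these 132 are in the goat RefSeq table (assembly ARS1.2). The transcript with the highest mean stands for a gene. By rule, all transcripts of the choice and up to 4 genes of each list with the smallest FDR are named; other genes were named after their values were seen. Not every gene that the rule allows is reported here. Transcripts with 1 description, and near-identical family members, can share reads that the authors' counting may have split. The calculation was tested on simulated data. Alternatives were FDR below 0.01, the unadjusted p, pseudocounts of 0.1 and 1, a 2-fold minimum, a 1 RPKM minimum, 1 transcript per component or description, and centring on the table's or the ribosomal protein median; 2 more were added after seeing the data, without the adaptor and with TLR3 and TLR5. The software was pandas 2.3.3, numpy 2.4.6, matplotlib 3.10.9 and scipy 1.17.1 under Python 3.11.15.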

Additional observations from a re-analysis of the deposited data

How the results depend on the processing

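No paired analysis was possible because the deposited values are stage means; for the same reason no sample could be left out. The 2 TLR8 transcripts listed at 0 in lactation have no ratio to recompute against it. Of 18 transcripts, 13 rose at dry-off by the authors' FDR below 0.05, against 65.9% of all transcripts. With 1 transcript per description 8 of 9 rose, against 2512 of 3630 over all descriptions. At an FDR below 0.01, 1 of the 18 rose (the first CSF1R transcript). No share of all transcripts was counted at that threshold, so the lower count cannot be read as particular to these transcripts. The count was 17 by the unadjusted p, 10 above the table's median, and 12 above the ribosomal protein median; both of the last count 1 TLR8 transcript that passed and has no ratio as higher, because its lactation mean is 0. The median log2 ratio of dry-off over lactation was 3.57, and 2.03 with a pseudocount of 1, 1.49 centred on the table's median and 2.57 centred on the ribosomal protein median. For non-lactation over lactation 0 passed, and 2 by the unadjusted p; the median of 2.08 became 0.87 with a pseudocount of 1 and 0.69 centred on the table. For non-lactation over dry-off 0 passed, and 7 by the unadjusted p; the median of −1.44 became −0.74 centred on the table and −0.81 centred on ribosomal proteins. At dry-off the log2 ratio of CD14 turned to −0.37, of TLR4 to −0.55 and of TLR2 to −1.36 when centred on the table, and of TLR2 to −0.28 when centred on ribosomal proteins. Centring moved the table's own calls from 6016 higher and 63 lower to 3081 and 2998 about its median, and to 5790 and 289 about the ribosomal protein median. Depth and spread per sample are not known, so low means, such as those of TLR7, carry an error that cannot be given.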
